A study of Mus musculus with 3 samples.

Results

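The genes described here are 10 of the 32285 genes in the deposited tables of mouse lacrimal gland nuclei. They were chosen by symbol, with earlier results of these data known, and all 10 were found: Rab3d and Rab27b, Rims2, Sytl4 and Exph5, Vamp2 and Vamp8, Snap23, Stx3, and Stxbp2. Together they are parts of the machinery by which a secretory granule is carried to the plasma membrane, docked there and fused with it.

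The series holds 3 libraries of single nuclei, 1 per group. The tamsulosin library came from glands of mice with the dry eye model, made by scopolamine and dry stress, that were also given tamsulosin. The scopolamine library came from glands of model mice without that drug, and the control library from glands of normal mice. Scopolamine blocks the muscarinic acetylcholine receptors through which nerves call for tear secretion, whereas tamsulosin is an antagonist of the alpha-1 class of adrenergic receptor. The labels give no strain, age, dose, duration or number of animals for any group, so n = 1 in each, no test between groups was possible and no p-value is given. The labels' protocol also speaks of a sort of red fluorescent nuclei and of a plate method, and whether either applies to these droplet libraries could not be settled.

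The lacrimal acinar cell stores tear proteins in granules beneath its apical membrane. Rab3 and Rab27 GTPases sit on the granule and recruit effectors that tether it to the membrane. Fusion is then driven by SNARE proteins, one set on the granule (Vamp) and another on the target membrane (syntaxins and the Snap23 family), which a Munc18 protein such as Stxbp2 holds ready. Several of these proteins were first studied at nerve terminals, and exocrine glands use related members of the same families.

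The members are spread over the genome. In GENCODE M21 coordinates of mouse build GRCm38 (mm10), Rims2 spans 486.1 kb of chromosome 15 (39198261 to 39684372, plus strand), while Vamp2 spans 3.9 kb of chromosome 11 (69088490 to 69092384, plus strand). Stxbp2 lies on chromosome 8 (3630955 to 3643644, plus strand), Exph5 on chromosome 9 (53301670 to 53377514, plus strand) and Rab3d on the same chromosome (21907491 to 21918192, minus strand). Sytl4 is X-linked (133936385 to 133981812, minus strand). Vamp8 lies on chromosome 6, Snap23 on chromosome 2 and Stx3 on chromosome 19. All are protein-coding. The counts do not separate exonic from intronic reads, so in nuclei a long gene offers more transcript to capture, and levels are not compared between genes.

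RefSeq promoter windows (GRCm38.p6, 250 bases before to 50 after the annotated start) were found for 7 of the 10 members. Those of Stxbp2 (chr8:3630859-3631158, plus strand), Exph5 (chr9:53301420-53301719, plus strand) and Sytl4 (chrX:133981763-133982062, minus strand) are shown because these 3 genes had the lowest CPM ratios to control of the 10 in acinar-like nuclei of the tamsulosin library, and were below control in the scopolamine library too. Each is written 5′ to 3′ along its gene, with the E-box letters CACGTG in capitals where they occur.
Stxbp2: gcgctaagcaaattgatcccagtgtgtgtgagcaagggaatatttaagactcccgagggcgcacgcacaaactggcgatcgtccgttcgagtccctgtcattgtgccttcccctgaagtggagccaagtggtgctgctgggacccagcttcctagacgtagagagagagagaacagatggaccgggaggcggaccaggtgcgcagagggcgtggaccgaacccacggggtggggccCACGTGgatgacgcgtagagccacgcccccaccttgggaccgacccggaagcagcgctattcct
Exph5: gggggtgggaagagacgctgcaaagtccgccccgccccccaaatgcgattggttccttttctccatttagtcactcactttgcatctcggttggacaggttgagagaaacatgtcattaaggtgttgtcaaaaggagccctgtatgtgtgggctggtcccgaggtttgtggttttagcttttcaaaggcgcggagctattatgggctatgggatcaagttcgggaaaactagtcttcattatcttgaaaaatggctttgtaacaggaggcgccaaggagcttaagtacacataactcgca
Sytl4: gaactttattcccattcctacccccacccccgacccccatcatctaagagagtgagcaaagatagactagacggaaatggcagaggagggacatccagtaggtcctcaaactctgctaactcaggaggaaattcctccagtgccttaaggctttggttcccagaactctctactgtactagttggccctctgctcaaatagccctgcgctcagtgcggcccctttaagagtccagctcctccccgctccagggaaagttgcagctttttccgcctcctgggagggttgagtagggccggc
These letters, a form of E-box, are known to be bound by some basic helix-loop-helix factors and read the same on both strands. CACGTG was in 7.15% of the 32851 promoter windows and, among the 7 members, only in that of Stxbp2, where it begins at base 237 of the window. The form CATATG was found in 3.92% of all windows and in none of the 7 members. The form CAGCTG was found in 16.3% of all windows and likewise in none of the 7. A match is a description of these letters and not a binding site.

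After filtering, 10864 nuclei remained in the tamsulosin library, 9205 in scopolamine and 6780 in control. Their median depths were 3354, 1736 and 2304.5 UMIs (unique molecular identifiers, 1 per captured transcript). Before filtering the 3 tables summed to 57969348, 35237256 and 33500727 UMIs. The tamsulosin and scopolamine libraries shared 35 cell barcodes, tamsulosin and control 30, and scopolamine and control 22. A gene's level is given as CPM, its counts per 1000000 UMIs over the summed nuclei of a class in a library, with a 95% interval for counting error only. Nuclei were grouped into classes by clustering without the 10 members and named from marker genes as "-like". Acinar-like nuclei numbered 2868 in the tamsulosin library, 3295 in scopolamine and 5459 in control, and duct-like nuclei 3511, 948 and 447. They came from different clusters in each library: outside the Kit and Car6 subset described below, most were in cluster 4 in tamsulosin, in cluster 3 in scopolamine and in clusters 2, 6 and 15 in control. The acinar-like name rests on weak margins and is partly a remainder. A further 2910 shallow scopolamine nuclei (cluster 1, median 1065 UMIs) and the low-complexity barcodes, 2874 in tamsulosin, 558 in scopolamine and 1 in control, carry no class name.

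Acinar marker transcripts were counted in nuclei of every class. The 26 acinar marker genes summed to 99769 CPM in acinar-like nuclei and to 86063 to 100510 CPM in the 4 non-epithelial classes (fibroblast-, endothelial-, macrophage- and T or NK-like) of the tamsulosin library. The sums were 71503 against 62621 to 76595 CPM in scopolamine, and 30806 against 23316 to 30510 CPM in control. Of the 26 markers, 25 or 26 were detected in acinar-like nuclei and 23 to 25 in each non-epithelial class. Non-epithelial nuclei pooled within a library (1108 in tamsulosin, 1134 in scopolamine and 602 in control) were therefore used as the level against which each member was read.

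Rims2 encodes RIM2, a scaffold known from nerve terminals and endocrine cells that binds Rab3 and organises the release site. In acinar-like nuclei it stood at 70.4 CPM (66.4 to 74.6) in tamsulosin, 23.0 CPM (20.6 to 25.5) in scopolamine and 56.3 CPM (53.4 to 59.3) in control. Scopolamine was low and the other two were high, with no overlap of the 3 intervals. The tamsulosin level was 3.06-fold that of scopolamine (2.71 to 3.47) and the scopolamine level 0.408-fold that of control (0.362 to 0.459). The same low value was seen in the unnamed shallow cluster 1 of scopolamine, at 26.1 CPM (21.0 to 32.0).

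Cluster 4 let the drug-treated and model nuclei be compared inside 1 cluster, since it held 2079 tamsulosin and 288 scopolamine nuclei. There Rims2 was at 80.4 CPM in tamsulosin (1067 UMIs) and 23.2 CPM in scopolamine (21 UMIs), a ratio of 3.46 (2.25 to 5.62). Rab27b, by contrast, was at 475 and 414 CPM in these nuclei, a ratio of 1.15 (1.03 to 1.28). Rims2 was also among the 10 leading genes by fold of cluster 4. That rank restates its level in the tamsulosin nuclei, which make up most of the cluster, and adds no support. The small duct-like cluster 12 gave a like ratio of 3.85 (2.999 to 4.95), with 84.0 CPM in its 72 tamsulosin nuclei and 21.8 CPM in its 599 scopolamine nuclei. The larger duct-like cluster 0 showed no such difference: Rims2 was at 9.88 CPM in its 3439 tamsulosin nuclei and 10.3 CPM in its 348 scopolamine nuclei, a ratio of 0.957 (0.521 to 1.96). In the 72 tamsulosin nuclei of cluster 12, Rab27b was at 591 CPM (1091 UMIs), against 213 CPM (3450 UMIs) in those of cluster 0. Both genes were thus nearer their tamsulosin levels in cluster 4 than in cluster 0, and those 72 nuclei were also deeper per nucleus.

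**Figure D1:**
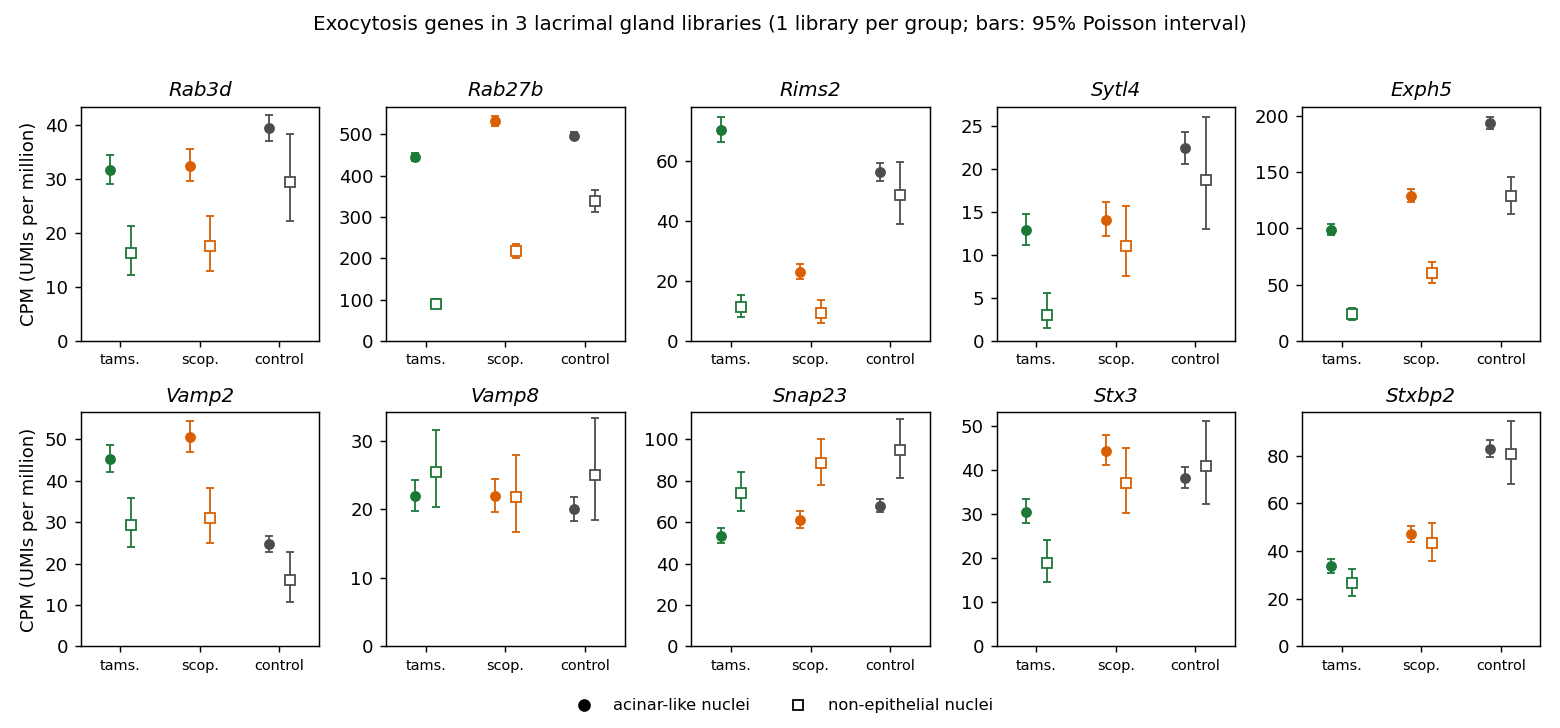
CPM of each of the 10 genes (vertical axis, from 0) in the tamsulosin, scopolamine and control libraries, 1 library per group. Filled circles are acinar-like nuclei, open squares the pooled non-epithelial nuclei of the same library, and bars the 95% Poisson interval. Rims2 in acinar-like nuclei is at 70.4 CPM in tamsulosin, 23.0 in scopolamine and 56.3 in control, and Vamp2 is higher in tamsulosin and scopolamine than in control in both kinds of nuclei.

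Whether tamsulosin exceeded control for Rims2 depends on the measure. By summed UMIs the ratio was 1.251 (1.16 to 1.35). When each nucleus was thinned to 1000 UMIs, 5.27% of acinar-like nuclei in tamsulosin (4.48 to 6.15), 2.57% in scopolamine (2.05 to 3.18) and 5.81% in control (5.20 to 6.46) had a Rims2 UMI. Without thinning these shares were 21.5, 7.13 and 16.9%. No order between tamsulosin and control is read from these values. The low scopolamine value is seen in both measures.

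To compare libraries across all genes, log2 ratios of (CPM + 5) were set relative to the median gene. Genes averaging 20 CPM or more entered, and a gene is said to pass at 1.5-fold. The medians subtracted in acinar-like nuclei were -0.22 for tamsulosin against scopolamine, -0.44 for tamsulosin against control and -0.24 for scopolamine against control. All relative values below are on this scale. Of the 10 members, 9 reached 20 CPM in each comparison, Sytl4 being the exception. The tamsulosin and scopolamine libraries are set against the same control library, so those comparisons are not independent.

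Between tamsulosin and scopolamine, 1 of the 9 passed higher, Rims2 at 1.65, and none lower. Over all 5425 genes 3.89% passed higher and 0.184% lower. The other 8 were between -0.26 (Stx3) and 0.21 (Vamp8). Between tamsulosin and control, 2 passed higher, Vamp2 at 1.20 and Rims2 at 0.74, and 1 lower, Stxbp2 at -0.74, where 8.81% of 5631 genes passed higher and 3.89% lower. The Rims2 value was 0.42 with nuclei thinned to 1000 UMIs, short of 1.5-fold. Between scopolamine and control, Vamp2 passed higher at 1.14 and Rims2 lower at -0.89, where 5.67% of 5772 genes passed higher and 3.4% lower. The median of the members' relative values was 0.05 for tamsulosin against scopolamine, 0.17 for tamsulosin against control and 0.04 for scopolamine against control, so the list as a whole sat close to the median gene.

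**Figure D2:**
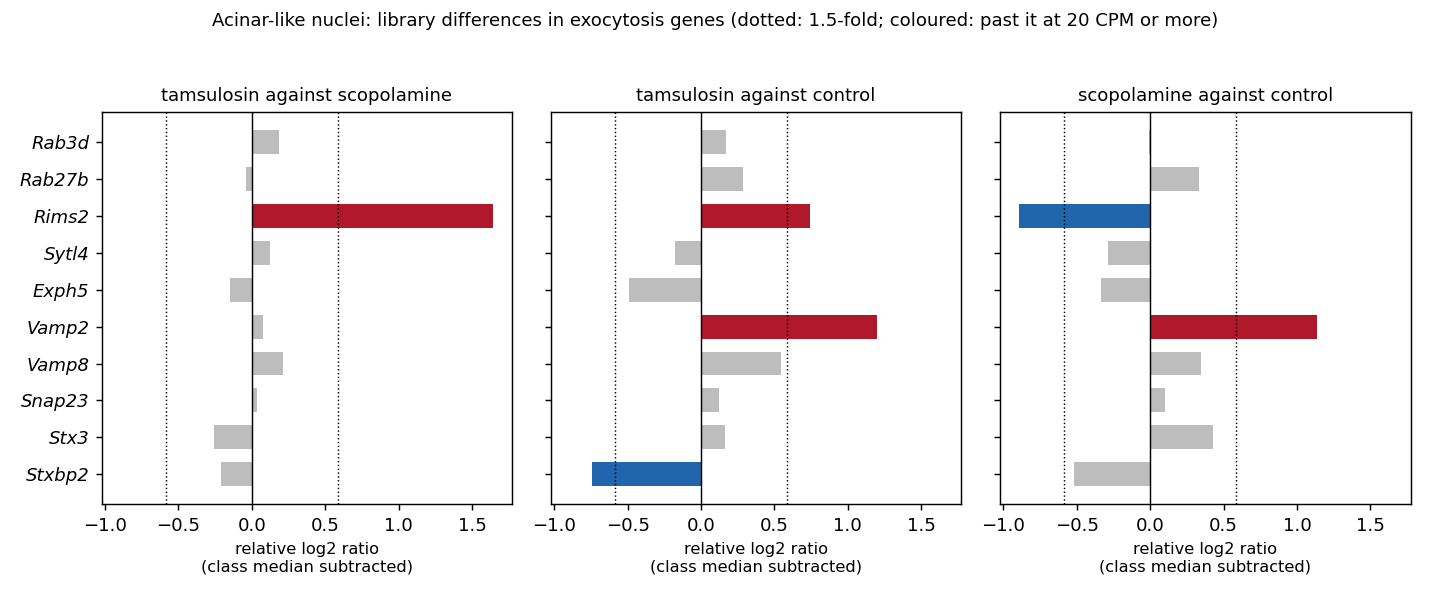
Relative log2 ratios of the 10 genes in acinar-like nuclei for tamsulosin against scopolamine, tamsulosin against control and scopolamine against control (horizontal axis, 0 being the median gene). Dotted lines mark 1.5-fold, red bars pass higher, blue bars pass lower and grey bars do not pass or are under 20 CPM. Rims2 is the 1 gene coloured in all 3 panels, at 1.65, 0.74 and -0.89.

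Rab27b and Rab3d are small GTPases of the secretory granule membrane, both known from exocrine cells. Rab27b stood at 445 CPM (435 to 456) in tamsulosin, 532 CPM (520 to 544) in scopolamine and 497 CPM (488 to 506) in control acinar-like nuclei. The intervals were narrow and apart, with scopolamine highest, yet the whole span was small and no comparison passed 1.5-fold. Rab3d was at 31.6 CPM (29.0 to 34.5) in tamsulosin, 32.4 CPM (29.6 to 35.4) in scopolamine and 39.3 CPM (36.9 to 41.8) in control. Tamsulosin and scopolamine overlapped for Rab3d and both lay below control in CPM, although relative to the median gene the values were 0.17 and -0.01.

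The pattern of Rab27b outside acinar-like nuclei was different. In non-epithelial nuclei it was at 89.5 CPM in tamsulosin, 217 CPM in scopolamine and 338 CPM in control. The ratio of acinar-like to non-epithelial nuclei was accordingly 4.97 (4.43 to 5.604) in tamsulosin, 2.45 (2.26 to 2.67) in scopolamine and 1.47 (1.36 to 1.59) in control. The genes on the acinar marker list did not share 1 order in non-epithelial nuclei. Chrm3, the muscarinic M3 receptor gene, was at 619 CPM there in tamsulosin, 1393 CPM in scopolamine and 2355 CPM in control, while Car6 was at 930.2, 627 and 524 CPM, and the summed list given above was also highest in tamsulosin. Chrm3 was not particular to acinar-like nuclei, since it was at 2989, 3742 and 3704 CPM there and at 3204, 4416 and 3989 CPM in duct-like nuclei. In myoepithelial-like nuclei it was higher still, at 4560, 5884 and 6964 CPM. The part of free RNA in the non-epithelial values was not tested.

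In tamsulosin the order of Rab27b levels was acinar-, duct- (252 CPM), fibroblast- (115), T or NK- (93.5), macrophage- (73.2) and myoepithelial-like nuclei (63.7 CPM). The fibroblast- to myoepithelial-like steps in that order were each within counting error. In control the order was acinar-, duct- (394), T or NK- (352), macrophage- (346), fibroblast- (320) and myoepithelial-like nuclei (225 CPM), where only the first and the last step exceeded counting error. Acinar-like nuclei thus led in each library by more than counting error, and in scopolamine their lead over duct-like nuclei was 1.09-fold (1.04 to 1.13).

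Exph5 encodes Slac2-b, and Sytl4 encodes granuphilin, both effectors that bind Rab27. Exph5 was at 98.9 CPM (94.1 to 104) in tamsulosin, 129 CPM (123 to 135) in scopolamine and 194 CPM (188 to 199) in control acinar-like nuclei. It was lowest in tamsulosin and highest in control with the intervals apart, but its relative values of -0.49 for tamsulosin and -0.33 for scopolamine against control did not pass. Sytl4 was at 12.8 CPM (11.2 to 14.7) in tamsulosin, 14.0 CPM (12.2 to 16.1) in scopolamine and 22.4 CPM (20.6 to 24.3) in control. The tamsulosin and scopolamine intervals of Sytl4 overlapped and both lay below control.

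Exph5 differed from Rab27b in where it was highest. In tamsulosin, duct-like nuclei had 145 CPM of Exph5 and acinar-like nuclei 98.9 CPM, a ratio of 1.47 (1.38 to 1.56). In scopolamine the duct-like level was 1.09-fold that of acinar-like nuclei (1.01 to 1.18), and in control the acinar-like level was 1.04-fold that of duct-like nuclei (0.952 to 1.14). In non-epithelial nuclei Exph5 stood at 23.7 CPM in tamsulosin, 59.97 CPM in scopolamine and 129 CPM in control.

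Relative to Rab27b, Rims2 and Exph5 were held in like proportions by acinar-like and non-epithelial nuclei of a library. For each 100 Rab27b UMIs there were 15.8 Rims2 UMIs (14.9 to 16.8) in acinar-like and 12.4 (8.57 to 17.5) in non-epithelial nuclei of tamsulosin. In scopolamine these figures were 4.32 (3.87 to 4.81) and 4.28 (2.77 to 6.33), and in control 11.3 (10.7 to 11.96) and 14.35 (11.4 to 17.9). The non-epithelial figure in scopolamine was thus low where the acinar-like figure was low. For Exph5 the figures in acinar-like and non-epithelial nuclei were 22.2 and 26.5 in tamsulosin, 24.2 and 27.6 in scopolamine, and 39.0 and 38.0 in control. Stxbp2 did not keep this proportion, with 7.57 and 29.5 in tamsulosin, 8.85 and 19.9 in scopolamine, and 16.7 and 23.8 in control. Nor did Vamp2 (10.19 and 32.89), Vamp8 (4.924 and 28.52), Snap23, Rab3d or Stx3 in tamsulosin, where each was higher in non-epithelial nuclei. Sytl4 (2.88 and 3.356) had overlapping intervals there, as did Vamp2 and Rab3d in control. A like proportion to Rab27b was thus not general among the members.

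Against non-epithelial nuclei of the same library, 4 members passed 1.5-fold higher in acinar-like nuclei of tamsulosin, Rab27b, Rims2, Exph5 and Rab3d, where 21.9% of all genes passed higher and 24.4% lower. In scopolamine 3 passed higher, Rab27b, Exph5 and Rab3d, against 17.3% higher and 22.4% lower over all genes. In control no member passed, against 8.94 and 16.5%. The largest control ratios were 1.55 for Vamp2, 1.51 for Exph5 and 1.47 for Rab27b. With nuclei thinned to 1000 UMIs, 5 members passed in scopolamine and 2, Rims2 and Rab27b, in control.

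The Rims2 ratio of acinar-like to non-epithelial nuclei was 6.34 (4.57 to 9.05) in tamsulosin, on 1153 and 37 UMIs. It was 2.48 (1.66 to 3.84) in scopolamine, on 342 and 26 UMIs, and 1.16 (0.938 to 1.45) in control, on 1450 and 91 UMIs. The gap was widest in tamsulosin, and in control the interval included 1. In non-epithelial nuclei Rims2 was low in both model libraries, at 11.1 CPM in tamsulosin, 9.28 CPM in scopolamine and 48.5 CPM in control. These levels were 0.229-fold (0.152 to 0.339) that of control in tamsulosin and 0.191-fold (0.119 to 0.298) in scopolamine. Tamsulosin and scopolamine did not differ there beyond counting error, at a ratio of 1.20 (0.706 to 2.06). Within control, T or NK-like nuclei had the highest Rims2 level, 104 CPM from 32 UMIs in 119 nuclei, 1.85-fold that of acinar-like nuclei (1.26 to 2.63). In tamsulosin and scopolamine the T or NK-like level was 15.8 CPM (15 UMIs) and 20.01 CPM (7 UMIs).

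**Figure D3:**
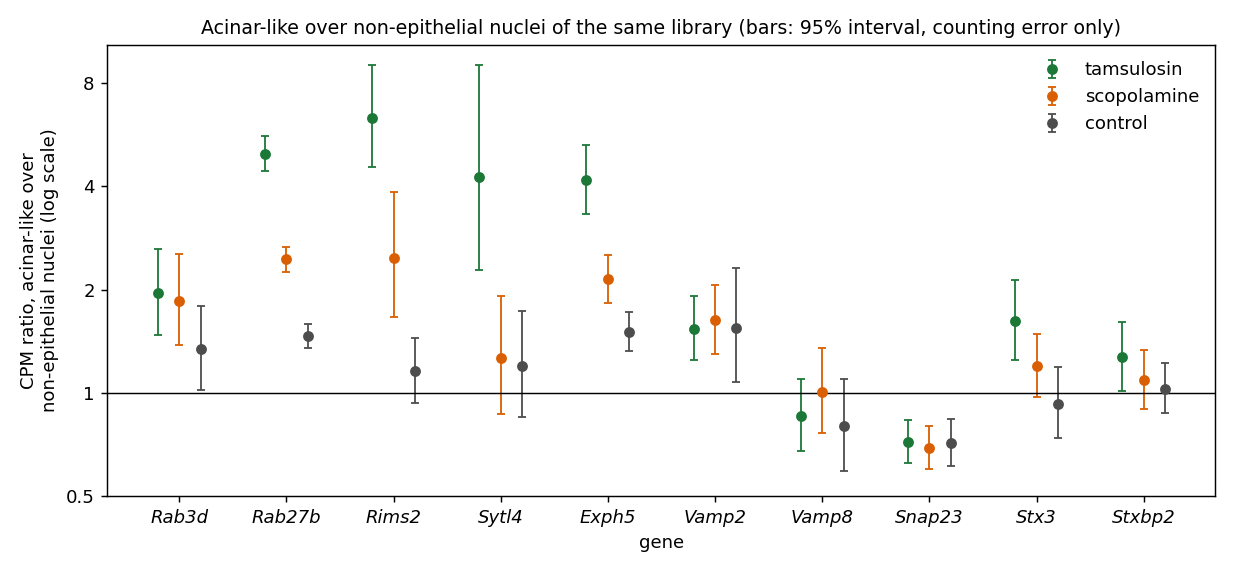
Ratio of CPM in acinar-like over non-epithelial nuclei of the same library for each gene (vertical log axis, with a line at 1), with tamsulosin, scopolamine and control side by side and bars for the 95% interval. Rab27b runs from 4.97 in tamsulosin over 2.45 in scopolamine to 1.47 in control, while Snap23 lies below 1 in each library.

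Vamp2 and Vamp8 are vesicle SNAREs, both found on granules of exocrine cells. Vamp2 was at 45.4 CPM (42.2 to 48.8) in tamsulosin, 50.6 CPM (47.0 to 54.3) in scopolamine and 24.8 CPM (22.9 to 26.8) in control acinar-like nuclei. Both model libraries lay well above control and their own intervals overlapped. The ratio was 1.83 (1.65 to 2.04) for tamsulosin and 2.04 (1.84 to 2.27) for scopolamine against control.

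The higher Vamp2 level was not confined to acinar-like nuclei. In duct-like nuclei it was at 40.6 CPM in tamsulosin, 43.7 CPM in scopolamine and 16.8 CPM in control, a ratio of 2.42 (1.81 to 3.30) for tamsulosin and 2.61 (1.92 to 3.61) for scopolamine against control. In non-epithelial nuclei it was at 29.4 CPM (98 UMIs), 31.1 CPM (87 UMIs) and 16.0 CPM (30 UMIs), ratios of 1.84 (1.21 to 2.87) and 1.94 (1.27 to 3.05) against control. Inside the Kit and Car6 cluster 9, which held 403 scopolamine and 461 control nuclei, scopolamine was again higher, at 46.8 against 24.5 CPM (1.91, 1.18 to 3.10). Acinar-like nuclei exceeded non-epithelial nuclei 1.54-fold in tamsulosin, 1.63-fold in scopolamine and 1.55-fold in control, so this ratio stayed nearly level while the CPM differed.

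Vamp8 was at 21.9 CPM (19.7 to 24.3) in tamsulosin, 22.0 CPM (19.6 to 24.5) in scopolamine and 20.03 CPM (18.3 to 21.8) in control acinar-like nuclei. These intervals overlapped in every pair. Its relative value for tamsulosin against control was 0.55, just short of 1.5-fold. It passed at 0.61 with nuclei thinned to 1000 UMIs and at 0.60 with a pseudocount of 1 CPM. With low-complexity barcodes counted as acinar-like the value was 0.82, but Vamp8 then averaged under 20 CPM and did not enter.

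Snap23 is the broadly expressed relative of the neuronal target SNARE Snap25, and Stx3 is a syntaxin of apical membranes. Snap23 was at 53.4 CPM (49.9 to 57.0) in tamsulosin, 61.2 CPM (57.3 to 65.3) in scopolamine and 67.9 CPM (64.8 to 71.2) in control acinar-like nuclei. Relative to the median gene these differences came to at most 0.12. Stx3 was at 30.7 CPM (28.0 to 33.5) in tamsulosin, 44.5 CPM (41.2 to 48.0) in scopolamine and 38.2 CPM (35.9 to 40.7) in control. It was highest in scopolamine and lowest in tamsulosin with the intervals apart, and it did not pass in any comparison.

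Snap23 was highest in macrophage-like nuclei in each library. They had 115 CPM in tamsulosin, 109 CPM in scopolamine and 118 CPM in control. These levels were 2.16-fold (1.80 to 2.58), 1.79-fold (1.48 to 2.13) and 1.74-fold (1.42 to 2.11) those of acinar-like nuclei in the same library. In the order of classes they were followed by fibroblast-like nuclei at 75.6, 87.0 and 70.8 CPM. The step from macrophage- to fibroblast-like exceeded counting error in tamsulosin and control but not in scopolamine. Vamp8 and Stxbp2 also had their highest CPM in macrophage- or T or NK-like nuclei in each library. The lead over the next class was within counting error for Vamp8 in each library and for Stxbp2 in tamsulosin and scopolamine. For Stxbp2 in control, T or NK-like nuclei led macrophage-like nuclei 1.53-fold (1.01 to 2.27), on 39 and 78 UMIs.

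Stxbp2 encodes Munc18-2, the partner of Stx3 and related syntaxins in epithelial and blood cells. Acinar-like nuclei had 33.7 CPM (31.0 to 36.6) in tamsulosin, 47.1 CPM (43.7 to 50.7) in scopolamine and 82.9 CPM (79.4 to 86.4) in control. It was lowest in tamsulosin and highest in control, with no overlap. The ratio to control was 0.407 (0.370 to 0.447) in tamsulosin and 0.568 (0.521 to 0.619) in scopolamine, and relative to the median gene the scopolamine value of -0.52 fell just short of 1.5-fold. Counting the low-complexity barcodes as acinar-like brought the tamsulosin value against control to -0.57 and ended that call.

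The lower Stxbp2 level was not confined to acinar-like nuclei. Non-epithelial nuclei had 26.4 CPM in tamsulosin, 43.2 CPM in scopolamine and 80.6 CPM in control, a ratio to control of 0.328 (0.249 to 0.430) and 0.536 (0.419 to 0.686). The ratio of acinar-like to non-epithelial levels within a library was 1.28 (1.02 to 1.62) in tamsulosin, 1.09 (0.898 to 1.33) in scopolamine and 1.03 (0.872 to 1.22) in control. Inside cluster 4 the tamsulosin nuclei had 35.0 CPM and the scopolamine nuclei 64.1 CPM, a ratio of 0.546 (0.415 to 0.731).

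Duct-like nuclei were compared in the same way, with the reservation that cluster 0 held most of them in tamsulosin (3439), cluster 12 in scopolamine (599) and cluster 16 in control (407). Between tamsulosin and scopolamine no member passed higher and 1 lower, Rab27b at -0.71, where 11.9% of genes passed higher and 7.96% lower. Rab27b was at 252 CPM in tamsulosin and 489.8 CPM in scopolamine. Inside cluster 0 the ratio of tamsulosin to scopolamine was 0.714 (0.636 to 0.803) and inside cluster 12 it was 1.12 (1.04 to 1.20), so the pooled ratio of 0.514 (0.491 to 0.538) was not seen within either cluster. Between tamsulosin and control, Vamp2 (1.41) and Vamp8 (0.61) passed higher and Stxbp2 (-0.94) lower, where 13.6% of genes passed higher and 9.78% lower. For Vamp8 the ratio itself was 1.26 with an interval of 0.951 to 1.69. Between scopolamine and control, Vamp2 (1.28) passed higher and none lower, against 5.65 and 2.64% of genes.

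A subset of acinar-like nuclei was marked by Kit and Car6 (clusters 9 and 10). It made up 26.4% of acinar-like nuclei in tamsulosin (756), 13.5% in scopolamine (444) and 8.44% in control (461). Most of these nuclei were in cluster 10 in tamsulosin (751), but in cluster 9 in scopolamine (403) and control (461). Differences in this subset between tamsulosin and the other libraries are therefore also differences between clusters. These clusters were picked because Kit and Car6 were both among their 10 leading genes, so a high Car6 level there follows from the choice. Car6, a secreted carbonic anhydrase, was at 10014 CPM in these nuclei and 459 CPM in other acinar-like nuclei of tamsulosin, 10177 and 288 CPM in scopolamine, and 6793 and 428 CPM in control.

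Rims2 was low in this subset. In tamsulosin it was at 9.21 CPM (5.84 to 13.8) in Kit and Car6 nuclei and 81.4 CPM (76.7 to 86.3) in other acinar-like nuclei, a ratio of 0.113 (0.0714 to 0.171). In scopolamine it was at 6.56 CPM (2.64 to 13.5) and 24.2 CPM (21.7 to 27.0), a ratio of 0.271 (0.108 to 0.564) on 7 and 335 UMIs. In control it was at 37.1 CPM (27.8 to 48.5) and 57.4 CPM (54.4 to 60.5), a ratio of 0.646 (0.481 to 0.849). Against non-epithelial nuclei of the same library the Kit and Car6 level did not differ beyond counting error, at ratios of 0.829 (0.470 to 1.43) in tamsulosin, 0.707 (0.259 to 1.67) in scopolamine and 0.764 (0.534 to 1.08) in control.

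Rab27b lay above the non-epithelial level there. It stood at 248 CPM in Kit and Car6 nuclei and 481 CPM in other acinar-like nuclei of tamsulosin, 406 and 542 CPM in scopolamine, and 470.1 and 498 CPM in control. In tamsulosin the Kit and Car6 level was 2.77-fold that of non-epithelial nuclei (2.41 to 3.19), in scopolamine 1.87-fold (1.65 to 2.12) and in control 1.39-fold (1.24 to 1.55). The median gene differed between the 2 kinds of acinar-like nuclei by -0.76 on the log2 scale in tamsulosin, -0.38 in scopolamine and -0.06 in control, so relative to it Rab27b differed by -0.18, -0.03 and -0.02.

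Relative to that median, Rims2 passed lower in tamsulosin at -1.85, and Vamp8 passed higher in tamsulosin at 0.76, in scopolamine at 0.83 and in control at 0.62. No other member passed in any library. Rims2 in scopolamine averaged under 20 CPM over the 2 kinds of nuclei and did not enter. Over all genes 15.1% passed higher and 7.3% lower in tamsulosin, 10.6 and 6.76% in scopolamine, and 4.71 and 2.63% in control. The CPM of Vamp8 in Kit and Car6 and in other acinar-like nuclei was 22.0 and 21.9 in tamsulosin, 30.9 and 21.3 in scopolamine, and 30.8 and 19.4 in control. Of these pairs, the control ratio of 1.59 (1.14 to 2.16) was the 1 whose interval left out 1.

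**Figure D4:**
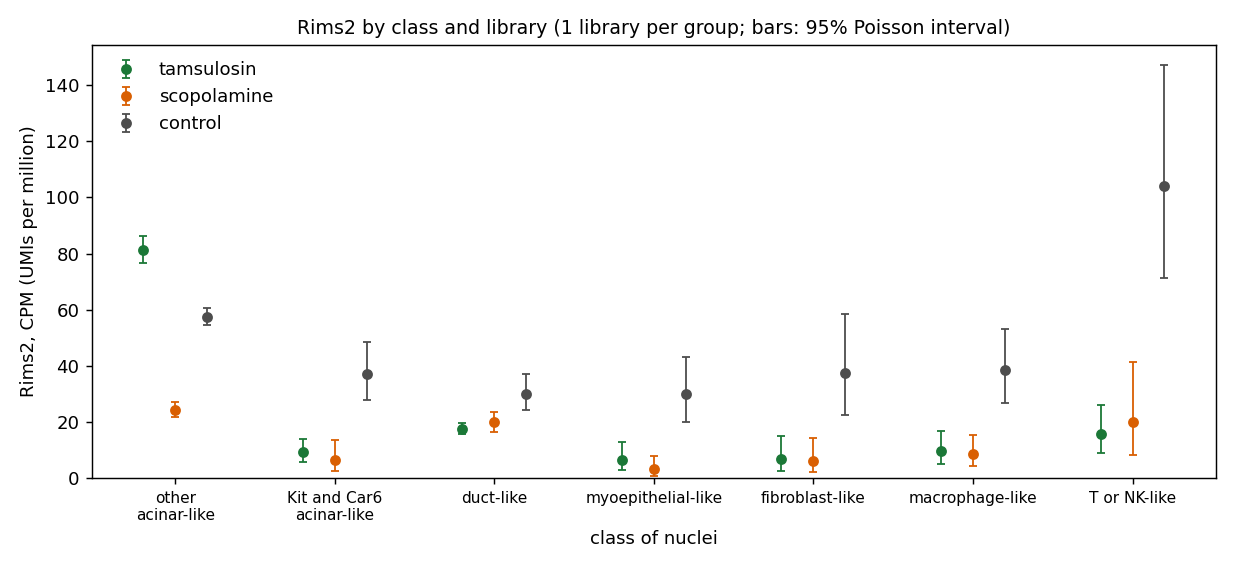
Rims2 CPM (vertical axis, from 0) by class of nuclei, with the tamsulosin, scopolamine and control libraries side by side and bars for the 95% Poisson interval. Other acinar-like nuclei stand at 81.4 CPM in tamsulosin, 24.2 in scopolamine and 57.4 in control, the Kit and Car6 subset at 9.21, 6.56 and 37.1, and the T or NK-like value in control, 104 CPM, rests on 32 UMIs.

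A list of 83 other exocytosis genes, all in the files, gave the setting for these members. In acinar-like nuclei 39 of them reached 20 CPM between tamsulosin and scopolamine and none passed in either direction, where 3.89% of all genes passed higher and 0.184% lower. Of 39 between tamsulosin and control, 1 passed higher, Stxbp6, and 1 lower, Myrip, against 8.81 and 3.89% of all genes. Of 42 between scopolamine and control, 2 passed higher, Stxbp6 among them, and 1 lower, Myrip, against 5.67 and 3.4%. The medians of their relative values were -0.05, 0.04 and 0.06.

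Myrip, a Rab27 effector that binds myosin and actin, was at 92.2 CPM in tamsulosin, 122 CPM in scopolamine and 232 CPM in control. Its ratio to control was 0.397 (0.374 to 0.420) in tamsulosin and 0.524 (0.497 to 0.552) in scopolamine. Stxbp6, which encodes the syntaxin-binding protein amisyn, was at 845 CPM in tamsulosin, 1062 CPM in scopolamine and 704 CPM in control. Its ratio to control was 1.20 (1.17 to 1.23) in tamsulosin and 1.51 (1.48 to 1.54) in scopolamine.

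Against non-epithelial nuclei, 13 of 35 listed genes passed higher and 5 lower in tamsulosin, 14 of 39 higher and 6 lower in scopolamine, and 10 of 43 higher and 7 lower in control. Over all genes the shares higher and lower were 21.9 and 24.4%, 17.3 and 22.4%, and 8.94 and 16.5% in these libraries. In tamsulosin the 4 largest on the higher side were Myo5c (399 CPM in acinar-like and 73.6 CPM in non-epithelial nuclei), Unc13b (855 and 175 CPM), Myo5b (137 and 25.8 CPM) and Mlph (261 and 58.9 CPM). Myo5c and Myo5b are class V myosins, Mlph encodes the Rab27 effector melanophilin, and Unc13b encodes the priming factor Munc13-2. On the lower side were Myo5a (4.46 and 238 CPM), Rab8b (17.0 and 165 CPM), Stxbp3 (27.9 and 84.1 CPM) and Stx7 (23.4 and 64.9 CPM). Myo5a and Myo5c, members of 1 myosin family, thus lay on opposite sides.

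For each member, the 3 genes most like it were found by Pearson correlation of log2(CPM + 5) over 18 sums (6 classes in 3 libraries) among 6103 genes. The sums share libraries, depth and free RNA, so these values are a description. Lpo and Mertk, among the genes named below, were also on the marker lists used to name the classes. Rims2 was most like Sec24c, Slc33a1 and Lpo, the gene of the secreted lactoperoxidase (r = 0.91, 0.90 and 0.90). Rab27b was most like Arhgef28, Mecom and Esrp1 (0.99, 0.98 and 0.98), and Exph5 most like Me1, Adra1a, the alpha-1A adrenergic receptor gene, and Thrb (0.99 each). Rab3d was most like Lnx2, Magt1 and Padi2 (0.89, 0.88 and 0.87), and Sytl4 most like Rev1, Pcca and Mical2 (0.95, 0.94 and 0.94).

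Among the SNAREs, the genes most like Snap23 included Mertk, a macrophage receptor gene, and Snx24 (0.95 and 0.94), and Stx3 was most like Fnbp1l, Ctnnd1 and Usp22 (0.86, 0.86 and 0.84). Vamp2 was most like Txnip, Serpinb11 and Bmyc (0.82, 0.81 and 0.79), and Vamp8 most like Rassf1, Zup1 and Myl12b (0.88, 0.83 and 0.79). Stxbp2 was most like Rlim, Taf4 and Zzz3 (0.95, 0.94 and 0.94). None of the members' lists of 3 shared a gene.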

How the data were processed

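Lacrimal gland nuclei of mice went through droplet sequencing (10x 3' v3 kit, per the labels' protocols). The deposited values are raw UMI counts, which the authors obtained on build mm10 using Cell Ranger 5.0.0, per the submitters' processing notes. The annotation release and the counting of introns are not given in the sources used here. Barcodes with at least 500 UMIs, 300 genes and at most 5% mitochondrial UMIs were kept. Scrublet called 0 doublets, so nuclei with the top scores were taken out instead, 0.8% for every 1000 nuclei (1156 in tamsulosin, 801 in scopolamine, 414 in control).

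Clusters came from 2000 variable genes without the 10 members, 30 principal components, 15 neighbours and Leiden at resolution 1.0 (scanpy 1.11.5, igraph 0.11.9, Python 3.11.15, scipy 1.17.1, numpy 2.4.6, pandas 2.3.3, scikit-learn 1.9.0), which gave 21 clusters. They were named from marker lists. The thresholds of that naming were set and revised after the clusters had been seen, and 2 clusters whose leading genes went against a name stayed unnamed. A class was compared where each library held at least 100 nuclei, and endothelial-like nuclei entered only the non-epithelial pool. No B or plasma cluster formed.

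UMI counts were summed per class and library. Intervals are 95% and exact (Poisson for CPM, Clopper-Pearson for shares, conditional binomial for ratios). UMIs of 1 library say nothing of differences between animals. The calling of 1.5-fold differences was tested on simulated counts with counting error only, where the planted changes were larger than 1.5-fold. Changes near 1.5-fold, genes near 20 CPM carrying a change, and differences between libraries beyond counting error were not simulated. No correction for free RNA was made. The members and lists were chosen with earlier results of these data known. The genes named are all 10 members, other exocytosis genes past 1.5-fold in acinar-like nuclei (at most the 4 largest each way), and the 3 genes most like each member. Of these, 2 genes are not reported here. Another 10 settings were tried, and 2 more that were chosen after seeing the data.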

Additional observations from a re-analysis of the deposited data

Results flagged for a closer look

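Relative to the median gene of the class, Rims2 and Stx3 had values of opposite sign between tamsulosin and control in different classes of nuclei. With 1 library per group these opposite directions were not tested. For Rims2 the relative log2 value was 0.74 in acinar-like nuclei, against -1.39 in fibroblast-like, -1.91 in T or NK-like and -1.08 in macrophage-like nuclei. The UMIs behind them, in tamsulosin and in control, were 1153 and 1450 in acinar-like, 6 and 19 in fibroblast-like, 15 and 32 in T or NK-like, and 12 and 36 in macrophage-like nuclei. For Stx3 the relative value was 0.62 in myoepithelial-like and -0.69 in fibroblast-like nuclei. Its CPM was lower in tamsulosin in both, at 32.3 against 34.1 CPM in control in myoepithelial-like and 16.0 against 41.3 CPM in fibroblast-like nuclei, and the myoepithelial-like value was 0.078 with nuclei thinned to 1000 UMIs. With the same thinning the acinar-like Rims2 value was 0.42.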

How the results depend on the processing

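No paired analysis was possible because each group has 1 library. Of 2160 single values under alternatives, 84 changed sign, most of them small values on either side of 0. Many of the rest could not move, so this share is no measure of stability. Allowing the members among the variable genes brought in 0 of them, and dropping the minimum CPM left each value as it was. Counting low-complexity barcodes or the shallow scopolamine cluster as acinar-like could alter only acinar-like nuclei. The same holds for leaving out the Kit and Car6 clusters. Of values past 1.5-fold at 20 CPM or more, 4 changed sign. These were Rab27b between scopolamine and control in myoepithelial-like nuclei (-0.69, and 0.34 with doublets kept), Rims2 between tamsulosin and control in fibroblast-like nuclei (-1.39, and 0.037 with doublets kept), Vamp2 between scopolamine and control in fibroblast-like nuclei (0.81, and -0.59 with nuclei thinned to 1000 UMIs), and Stxbp2 between tamsulosin and scopolamine in T or NK-like nuclei (-0.59, and 0.27 at 1600 UMIs or more). The cause was not tested for any of them.

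In acinar-like nuclei the count of members lower in scopolamine than in control was 1, and 2 (Rims2 and Stxbp2) both with thinning and with at least 1000 UMIs and 500 genes. The count lower in tamsulosin than in control was 1, and 0 with low-complexity barcodes counted as acinar-like. Against non-epithelial nuclei of scopolamine it was 3, and 5 (Rims2, Rab3d, Rab27b, Vamp2 and Exph5) both with thinning and with the 50 most abundant genes left out of the total. Against those of control it was 0, and 2 (Rims2 and Rab27b) with thinning and 1 (Exph5) at 1600 UMIs or more. Rims2 ran from 1.12 to 1.81 for tamsulosin against scopolamine, from 0.42 to 0.83 for tamsulosin against control and from -1.01 to -0.71 for scopolamine against control, and Vamp2 from 1.11 to 1.32 for tamsulosin and from 1.05 to 1.253 for scopolamine against control. These ranges include the 2 alternatives chosen after seeing the data, which counted the shallow scopolamine cluster as acinar-like or left out the Kit and Car6 clusters. Values outside the epithelium rest on few UMIs and are limited by depth.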

Other observations

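Low-complexity barcodes, which belong to no comparison, also held the members. In cluster 5, with 2215 tamsulosin barcodes, Rims2 was at 21.2 CPM (17.4 to 25.7) and Rab27b at 177 CPM (166 to 189). In cluster 8, Rims2 was at 3.54 CPM in 659 tamsulosin and 2.60 CPM in 516 scopolamine barcodes, where Rab27b was at 26.0 and 54.1 CPM.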
